A study of Homo sapiens with 6 samples.

Results

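Of 22216 peaks of the nuclear speckle protein SON called in untreated IMR90 cells on chromosomes 1 to 22 and X, 11501 (51.8%) had no counterpart after 3 or 6 days of treatment. They are the lines of the untreated SON list that overlap no line of the 3-day list and no line of the 6-day list, not even by 1 bp, and they are called untreated-only peaks here. The other 10715 untreated peaks, called recurring peaks, met a later peak. Of these, 5851 were found at 3 days only, 621 at 6 days only and 4243 at both times. Of the untreated peaks with a global irreproducible discovery rate (IDR) of at most 0.05, a measure of how poorly the replicates rank a peak alike, 4677 of 13255 (35.3%) were untreated-only. The members were selected on measured values, namely the presence of each peak in the 3 SON lists, so these counts, and the strength, width and IDR of the same lines, are a description and carry no test.

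IMR90 is a line of human embryonic lung fibroblasts. SON was mapped by ChIPmentation, in which antibody-bound chromatin is cut and tagged by a transposase on the beads, in 3 groups: untreated cells, cells after 3 days of the treatment named ICM, and cells after 6 days of it. The labels do not expand ICM. Cells of all 3 groups were fixed with 1% formaldehyde for 10 min. The DNA-binding protein HMGB2 was mapped in untreated cells fixed with 1.5 mM EGS for 20 min and then with formaldehyde, so HMGB2 and SON differ in fixation as well as in target. Each group is 1 deposited list, and each SON list combines 2 replicates whose making was not given in the sources used here. Because a group is a single list, differences between groups have no replicate check and were not tested. The 3-day list held 11028 and the 6-day list 5481 peaks on the same chromosomes, the depth of the libraries is unknown, and a peak missing from a list is not a measured absence of SON. In bulk chromatin, fewer cells with SON at a site and less SON per cell cannot be told apart. The labelled cell type was not checked against markers, since peak lists hold no expression. Percentages below are given with 95% exact binomial (Clopper-Pearson) intervals over peaks, promoters or genes. They cover counting error only, and neighbouring peaks and genes are not independent.

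SON is a large scaffold protein of nuclear speckles, the bodies that concentrate splicing factors and lie beside highly transcribed, gene-dense chromatin. Its RNA-binding and arginine-serine-rich parts take part in splicing, and its loss is known to disturb splicing of genes of the cell cycle. HMGB2 is an abundant architectural protein that bends DNA, and it is known to be depleted from nuclei of fibroblasts that enter senescence. Gene promoters are recognised by factors with short DNA motifs, among them NRF1, which binds GC-rich promoters of housekeeping and mitochondrial genes, ETS factors, NF-Y at the CCAAT box and Sp/KLF factors at the GC box.

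Promoter sequences are shown first, because 1 promoter motif, that of NRF1, was in a much smaller share of the promoters under untreated-only peaks. Each is the RefSeq window of GRCh38.p14 from 250 bases before to 50 after a gene's start, 5′ to 3′ on the gene's strand. Capitals mark matches, on either strand, to any of 11 motifs: the GC box GGGCGG, the CCAAT box CCAAT, ETS CCGGAAG, E2F TTTNGCGC, the E-box CACGTG, CRE TGACGTCA, AP-1 TGANTCA, the TATA box TATAAA and the consensus letters of NRF1, YY1 and CTCF. The NRF1 letters are a palindrome of 10 bases, in capitals in the FSAF1 window. Overlapping matches run together. The first 4 windows lie under the strongest untreated-only peaks that cover a whole window: TUG1 (chr22:30969015-30969314, + strand), a gene best known for a long noncoding RNA, RCN3 (chr19:49527753-49528052, + strand), which encodes a calcium-binding protein of the endoplasmic reticulum, FTSJ1 (chrX:48475949-48476248, + strand), a tRNA methyltransferase, and MDH2 (chr7:76047856-76048155, + strand), the mitochondrial malate dehydrogenase.
TUG1: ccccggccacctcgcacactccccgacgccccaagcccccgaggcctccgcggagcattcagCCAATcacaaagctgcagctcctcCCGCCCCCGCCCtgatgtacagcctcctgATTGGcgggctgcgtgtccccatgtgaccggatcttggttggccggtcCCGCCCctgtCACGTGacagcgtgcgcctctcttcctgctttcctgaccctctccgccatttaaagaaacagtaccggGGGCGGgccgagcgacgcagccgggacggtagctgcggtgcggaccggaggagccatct
RCN3: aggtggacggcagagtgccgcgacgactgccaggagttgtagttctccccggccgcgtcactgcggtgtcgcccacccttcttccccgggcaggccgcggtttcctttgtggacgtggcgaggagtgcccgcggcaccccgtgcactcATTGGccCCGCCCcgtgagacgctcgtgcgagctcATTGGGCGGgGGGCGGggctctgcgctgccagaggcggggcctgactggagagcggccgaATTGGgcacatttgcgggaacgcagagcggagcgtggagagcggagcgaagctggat
FTSJ1: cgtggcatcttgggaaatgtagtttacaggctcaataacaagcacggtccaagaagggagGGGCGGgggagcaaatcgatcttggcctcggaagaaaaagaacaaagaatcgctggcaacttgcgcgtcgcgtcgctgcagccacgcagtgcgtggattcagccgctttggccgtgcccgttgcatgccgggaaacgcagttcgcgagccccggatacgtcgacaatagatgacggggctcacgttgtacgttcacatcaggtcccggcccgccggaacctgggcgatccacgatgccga
MDH2: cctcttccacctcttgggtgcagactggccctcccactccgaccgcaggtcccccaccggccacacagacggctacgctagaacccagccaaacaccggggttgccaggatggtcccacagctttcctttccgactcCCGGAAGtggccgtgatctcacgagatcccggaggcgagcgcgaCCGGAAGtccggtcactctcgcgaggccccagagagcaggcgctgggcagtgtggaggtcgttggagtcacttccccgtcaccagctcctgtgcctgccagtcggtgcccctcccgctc
TUG1 and RCN3 carry GC and CCAAT boxes, FTSJ1 a single GC box and MDH2 a pair of ETS matches, and none of these 4 windows holds the NRF1 letters. The next 2 do, and were chosen after the motif counts were seen. FSAF1 (chr1:231241126-231241425, - strand), whose peak also meets the window of GNPAT, a peroxisomal enzyme of ether lipid synthesis, is the strongest untreated-only case, with a −log10 p of 16.8. MAP2K7 (chr19:7903627-7903926, + strand), a kinase that activates JNK, is the strongest among peaks found at 3 and 6 days, with a −log10 p of 203.
FSAF1: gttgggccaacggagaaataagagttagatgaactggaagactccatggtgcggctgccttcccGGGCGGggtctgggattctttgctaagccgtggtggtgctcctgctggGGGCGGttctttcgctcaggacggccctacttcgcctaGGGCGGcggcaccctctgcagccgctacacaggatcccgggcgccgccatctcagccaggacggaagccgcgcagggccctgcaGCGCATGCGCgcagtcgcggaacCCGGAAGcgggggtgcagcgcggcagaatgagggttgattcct
MAP2K7: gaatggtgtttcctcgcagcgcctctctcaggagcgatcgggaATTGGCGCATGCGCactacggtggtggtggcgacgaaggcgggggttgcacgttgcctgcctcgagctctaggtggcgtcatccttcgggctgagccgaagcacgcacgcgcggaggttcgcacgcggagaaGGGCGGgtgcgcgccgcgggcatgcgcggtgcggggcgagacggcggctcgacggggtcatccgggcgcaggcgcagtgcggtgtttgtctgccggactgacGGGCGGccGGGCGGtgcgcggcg
In MAP2K7 a CCAAT box on the opposite strand runs into the NRF1 letters, and FSAF1 carries an ETS match 3′ of them.

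Untreated-only peaks were weak members of their own list. Strength is the −log10 p that the authors' list gives for the weaker replicate. Its median was 7.89 (quartiles 6.46 and 10.1) in untreated-only peaks and 14.8 (9.91 and 22.8) in recurring peaks. Peaks found at 3 days only stood at 12.7, those found at 6 days only at 9.38 and those found at both times at 21.5. The ranges overlapped widely, since untreated-only peaks reached 35.6 and recurring peaks began at 3.76. Among 5 equal classes of strength, the untreated-only share was 82.7%, 74.9%, 60%, 34.6% and 6.62% from the weakest to the strongest. Only 2 of the 1112 peaks in the strongest 5% of the list were untreated-only.

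**Figure D1:**
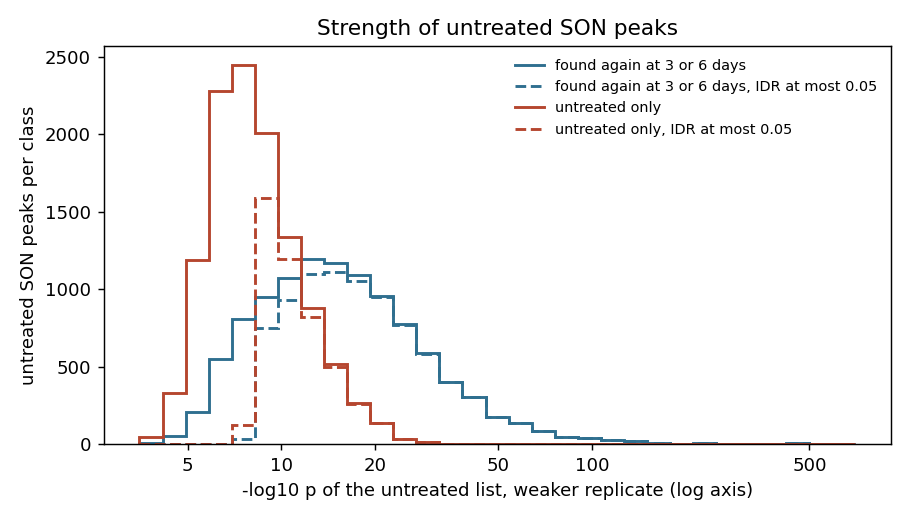
Number of untreated SON peaks (vertical axis) by −log10 p of the weaker replicate (horizontal log axis) in untreated-only peaks (red) and peaks found again at 3 or 6 days (blue), with dashed lines for a global IDR of at most 0.05. The untreated-only peaks centre on a median of 7.89 and end at 35.6, while the recurring peaks centre on 14.8 and reach 690.5.

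Untreated-only peaks were also narrower and had higher IDR values. Their median width was 355 bp against 488 bp in recurring peaks, and together they covered 4.35 Mb against 5.61 Mb. The largest IDR of the list, 0.431, was that of 50.4% of untreated-only and 13.7% of recurring peaks. In 47.9% of untreated-only peaks and 64.7% of recurring peaks both replicates had exactly the same −log10 p, against 56.0% of all untreated peaks. Whether the 2 replicates are independent libraries is not known. Equal values in both and a low IDR are therefore not taken here as an independent check of a peak. The subset with a global IDR of at most 0.05 made up 40.7% of untreated-only peaks, with a median −log10 p of 10.6 and a median width of 386 bp, against 17.2 and 504 bp in recurring peaks of that IDR. Just inside this limit, with an IDR of 0.0499, lay a peak in MED15 (chr22:20515056-20515381), a subunit of the Mediator complex, with a −log10 p of 9.07. Just outside it, with a −log10 IDR of 1.30101, lay a peak in OSBPL8 (chr12:76455764-76456071), a lipid transfer protein gene, with 9.48.

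Untreated-only peaks overlap no later peak by rule, so only the size of the gap is described. Its median was 40.8 kb to the nearest peak of either later list. To the nearest 3-day peak it was 45.6 kb and to the nearest 6-day peak 97.8 kb. To the nearest recurring peak it was 46.5 kb. The gaps that random positions would give were not computed. Whether untreated-only peaks lay nearer to later peaks than such positions, or farther away, was therefore not tested. A later peak lay within 1 kb of 342 of them (2.97%), and none lay within 100 kb of 2878 (25%). The smallest gap was 3 bp, from a peak in LRRC45 (chr17:82031005-82031336) with a −log10 p of 7.98, followed by gaps of 13 bp in C15orf40 (chr15:83010927-83011244) and 21 bp in BICRA (chr19:47664199-47664506). On the other side of the rule, the smallest overlap was 1 bp, in LOXL2 (chr8:23336364-23336810), which encodes a crosslinking enzyme of collagen and elastin. The next overlaps were 2 bp, on chr6:100202728-100203140 outside any gene of the table, and 12 bp, in the long noncoding RNA gene LOC124904475 (chr1:193707302-193707740).

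The 10 strongest untreated-only peaks had −log10 p values of 28.4 to 35.6 in the weaker replicate and IDR values of 0.00183 to 0.00257. The first lay in LRRC49 (chr15:71048857-71049338), with 35.6 in both replicates, 47.6 kb from the nearest start in the table, that of THSD4, and 170.2 kb from any later peak. The TUG1 promoter peak (chr22:30968839-30969435) had 34.9 in both replicates, and its nearest later peak was 86.1 kb away. These 2 are the untreated-only peaks within the strongest 5% of the list. The peak in the long noncoding RNA gene LOC124902208 (chr9:91192938-91193469) had 32 and 34.7 in the 2 replicates and lay 166 bp from a 3-day peak. A peak in RRS1 (chr8:66428771-66429112), which encodes a ribosome assembly factor, had 32.6 and 32 and met an HMGB2 peak with a fold enrichment of 5.09. The peak over the start of STK40 (chr1:36385888-36386352), a gene of the serine/threonine kinase family, had 30.9 in both replicates, met an HMGB2 peak of fold 4.37 and lay 120 bp from a 3-day peak. For LOC124902208 and STK40 a 3-day peak was thus adjacent to the untreated one.

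The remaining strong peaks were mostly inside genes and away from starts. They lay in CASS4 (chr20:56439726-56440316), a gene of a scaffold protein of focal adhesions, with 31.1, and in the transcribed pseudogene GTF2IP1 (chr7:75215497-75216043), with 30.2. GALNT7 (chr4:173252231-173252751), which encodes a transferase of O-linked glycosylation, carried one with 29.8 at 83.4 kb from its start. SYT7 (chr11:61567253-61567569), a calcium sensor of membrane fusion, carried one with 29.6. The peak over the start of RCN3 (chr19:49527609-49528126) had 28.4 and 31.3 in the 2 replicates, with the nearest later peak 18.8 kb away.

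Overlap with HMGB2, which the rule did not use, was less frequent in untreated-only than in recurring peaks. An HMGB2 peak met 1065 of the 11501 untreated-only peaks (9.26%, 8.74 to 9.80%) and 2599 of the 10715 recurring peaks (24.3%, 23.4 to 25.1%), against 16.5% of all untreated peaks. Peaks found at 6 days only stood at 10.8% (8.46 to 13.5%), those found at 3 days only at 21% and those found at both times at 30.7%. With an IDR of at most 0.05 the shares were 11.9% (11 to 12.9%) and 26.8% (25.9 to 27.8%). The untreated-only share was lower in each of the 5 strength classes. It went from 5.88% in the weakest class to 19.7% (15.3 to 24.7%) in the strongest, where recurring peaks stood at 35.8% (34.4 to 37.3%). In the second class the shares were 8.90% (7.95 to 9.92%) and 11.9% (10.1 to 14%), the closest of the 5. Most of the gap moved with strength and width. When recurring peaks were weighted to the mix of the untreated-only peaks over 5 strength by 3 width classes, their share was 11.9%, so that the gap shrank from 15 to 2.67 percentage points.

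**Figure D2:**
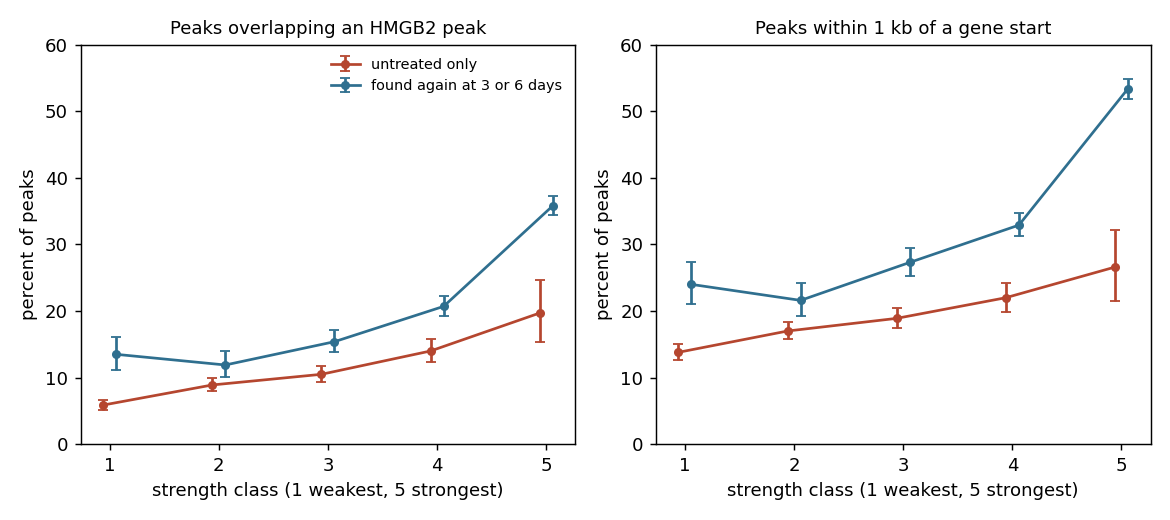
Percent of peaks that overlap an HMGB2 peak (left) and that lie within 1 kb of a gene start (right) in 5 strength classes of the untreated SON list, for untreated-only peaks (red) and recurring peaks (blue), with bars for 95% exact binomial intervals. Red lies below blue in every class of both panels, with 19.7% against 35.8% and 26.6% against 53.4% in the strongest class.

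HMGB2 peaks were also set side by side by the kind of SON peak they met, as a description. Untreated-only peaks alone met 1075 HMGB2 peaks (17.9% of the list), with a median fold enrichment of 4.84 (quartiles 3.95 and 6.09). Recurring peaks met 2659, with 4.41 (3.56 and 5.55), and 2258 HMGB2 peaks met no untreated SON peak, with 5.41 (4.71 and 6.33). The quartile ranges of the 3 groups overlap. By median −log10 p, at 9.54, 10.7 and 8.57, and by median width, at 241, 265 and 220.0 bp, the order was the opposite of that by fold. Away from gene ends, the strongest untreated-only peaks with HMGB2 lay on chr18:12279141-12279573, outside any gene and 24.8 kb from the start of CIDEA, on chr14:75441051-75441505 in JDP2, a repressor of the AP-1 family, and on chr6:37137456-37138000, 32.2 kb from the start of the kinase gene PIM1. Their −log10 p values were 27.6, 24.3 and 24.1, and the HMGB2 folds there were 4.49, 6.58 and 2.77. The strongest such peaks without HMGB2 were those of LRRC49, LOC124902208 and CASS4.

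Untreated-only peaks lay at gene starts less often than recurring peaks did. The starts of 15812 protein-coding genes on 22 chromosomes were used, and peaks on chromosome 8 are left out of these shares. Within 1 kb of a start lay 1904 of 10957 untreated-only peaks (17.4%, 16.7 to 18.1%) and 3927 of 10295 recurring peaks (38.1%, 37.2 to 39.1%), against 27.4% of all untreated peaks. The shares at an IDR of at most 0.05 were 20.5% and 42.2%. Recurring peaks differed among themselves: 41.6% of those found at 3 days only lay at a start, 38.4% of those found at both times and 3.72% (2.34 to 5.57%) of those found at 6 days only. In the strongest class of SON peaks, 26.6% (21.5 to 32.2%) of untreated-only and 53.4% (51.8 to 54.9%) of recurring peaks were at a start. Here too strength and width moved with the gap, which went from 20.8 to 1.72 percentage points when recurring peaks were weighted to the mix of the untreated-only peaks.

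The untreated-only peaks were more often distal. Their median distance to a start was 40.1 kb against 14.8 kb, and 27.8% lay over 100 kb from one, against 19.3% of recurring peaks. Inside a protein-coding gene lay 62.6% (61.8 to 63.5%) of them and 71.7% (70.8 to 72.6%) of recurring peaks, against 67% of all untreated peaks and 54.8% (50.7 to 58.7%) of those found at 6 days only. In the 3 weaker strength classes these shares had overlapping intervals, at 60.2% and 61.4%, 63.1% and 64.5%, and 63.7% and 66.5%. More than 5 kb from any such gene lay 31.6% of untreated-only and 23.2% of recurring peaks. HMGB2 overlap was lower in untreated-only peaks both at starts, with 17.6% (16 to 19.4%) against 35.8% (34.3 to 37.3%), and elsewhere, with 7.57% (7.03 to 8.13%) against 17.8% (16.9 to 18.8%). These HMGB2 shares and the distances to starts were not weighted by peak strength or width. Most of the gaps in HMGB2 overlap and at starts moved with strength and width. Among noncoding genes, a tRNA gene lay under 35 untreated-only peaks (0.304%, 0.212 to 0.423%) and 69 recurring peaks (0.644%, 0.501 to 0.814%). Long noncoding RNA genes were met by 19.1% and 21.2%, and pseudogenes by 0.583% and 0.457%, the latter with overlapping intervals.

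Promoters under untreated-only peaks shared their base composition and most motifs with promoters under recurring peaks, but not the NRF1 letters. Of 5948 promoter windows under an untreated SON peak, 1754 (29.5%) lay under untreated-only peaks alone. The other 4194 met a recurring peak, and 9864 windows met no untreated SON peak. Neighbouring genes can share a peak: the 1754 windows lay under 1583 peaks and the 4194 under 3648. Median G+C was 65.3% in windows under untreated-only peaks, 64.7% under recurring peaks and 60.7% under none. The observed-to-expected CpG ratio had medians of 0.85, 0.89 and 0.58 in the same order. By these measures both kinds of SON promoter were CpG-rich, like most promoters of widely expressed genes.

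The NRF1 letters were in 15 of 1754 windows under untreated-only peaks (0.855%, 0.479 to 1.41%). They were in 218 of 4194 under recurring peaks (5.20%, 4.55 to 5.91%), in 0.456% of windows without an untreated SON peak and in 1.76% of all 15812 windows. The interval of the untreated-only windows lay below that of the windows under recurring peaks and overlapped that of the windows without a peak. Among recurring peaks the share was 3.47% (2.78 to 4.28%) for windows found at 3 days only and 7.67% (6.46 to 9.03%) for those found at both times. Of the 13 windows found at 6 days only, 0 held the letters, with an interval of 0 to 24.7%, so this group is too small to place. Seen from the motif, 15 of 233 SON-covered promoters with the letters were untreated-only (6.44%, 3.65 to 10.4%), against 1739 of 5715 without them (30.4%, 29.2 to 31.6%).

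Peak strength moved with the NRF1 letters, since the median −log10 p of the covering peak was 21.8 with them and 14.6 without. The share under untreated-only peaks was the lower one in each of the 5 strength classes. In the second class it was 0.626% (0.129 to 1.82%) against 9.0% (5.51 to 13.7%), and in the fourth 0.608% (0.0737 to 2.18%) against 3.52% (2.45 to 4.89%). In the weakest class the intervals overlapped, at 1.18% (0.385 to 2.74%) and 3.55% (1.31 to 7.57%). Of the 138 promoters with the letters in the strongest class, 0 were untreated-only, which allows a share of up to 2.2% at 3 counts of the total and 2.64% by the exact interval. Without the letters the share in that class was also low, 75 of 2318 (3.24%, 2.55 to 4.04%). That share lies above the upper limit of 2.64%, but the 2 exact intervals still meet at their ends. Weighted to the untreated-only mix over 5 strength classes alone, windows under recurring peaks held the letters in 5.37%, against 5.20% unweighted. Over 5 strength by 3 width classes they held them in 3.19%, and over 5 classes of CpG ratio in 4.85%. The strength by width value rests in part on a class with 18 recurring windows, which carries 367 of the untreated-only ones.

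With 1 of the central bases left free, a form that includes the palindrome and was searched after its counts were seen, the shares were 5.59% (4.56 to 6.77%) under untreated-only and 23.6% (22.3 to 24.9%) under recurring peaks. In windows without an untreated SON peak it was 2.75% (2.43 to 3.09%), below both, and in all windows 8.59%. The 15 untreated-only promoters with the palindrome lay under 14 peaks. They belong to FBXL5, FMR1, FSAF1, GNPAT, JAG1, KIF6, RGS17, RTF1, SIRT5, TMEM14A, UBE4A, VASH1, WDSUB1, ZNF800 and ZSCAN29. They include SIRT5, a mitochondrial deacylase, with a −log10 p of 11.6, FMR1, an RNA-binding protein gene, with 9.40, and JAG1, a Notch ligand, with 6.29. A match is a stretch of letters in this window and not a measured site of the factor.

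**Figure D3:**
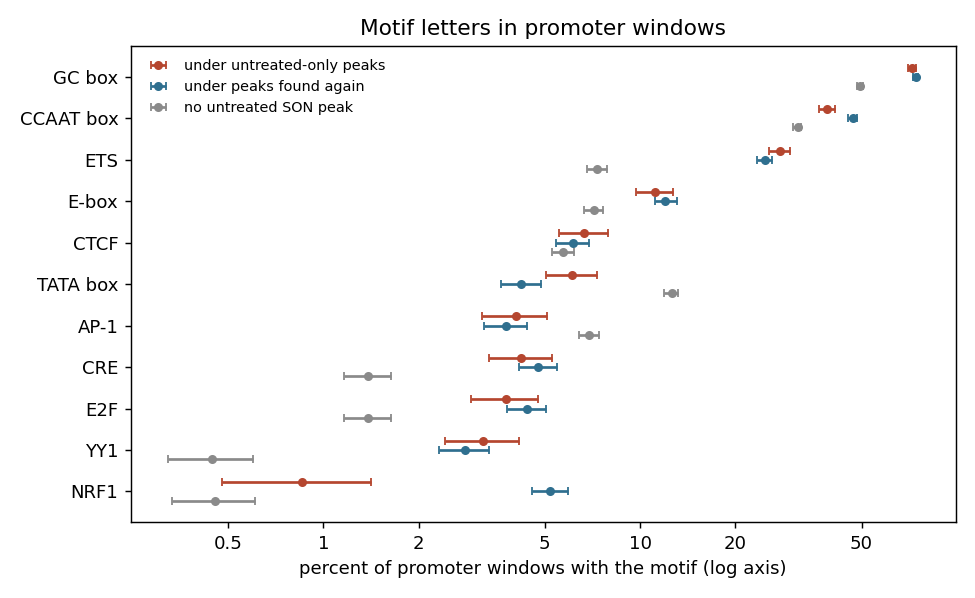
Percent of promoter windows that hold each of 11 motifs (horizontal log axis) for windows under untreated-only SON peaks (red), under recurring peaks (blue) and without an untreated SON peak (grey), with bars for 95% exact binomial intervals. For NRF1 red lies at 0.855% and blue at 5.20%, while for most other motifs red and blue lie close together and apart from grey.

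Other motifs differed less between the 2 kinds of SON promoter. The ETS letters were in 27.6% (25.5 to 29.8%) of windows under untreated-only peaks, 24.7% (23.4 to 26.1%) under recurring peaks, 7.32% without a peak and 14.2% of all windows. Weighted to the untreated-only mix, recurring windows held them in 21.3% over strength classes, 23.4% over strength by width, 24.2% over CpG ratio and 24.1% over G+C. The GC box was in 72.3% (70.2 to 74.4%) and 74.1% (72.7 to 75.4%), against 58.5% of all windows. The YY1 letters were in 3.19% and 2.79%, CRE in 4.22% and 4.77%, E2F in 3.76% and 4.39% and the E-box in 11.1% and 12%, each pair with overlapping intervals. In all windows these 4 stood at 1.37%, 2.59%, 2.44% and 8.87%. The CCAAT box was less frequent under untreated-only peaks, with 39.0% (36.7 to 41.3%) against 46.9% (45.3 to 48.4%), where all windows stood at 36.3%. Recurring windows weighted to the untreated-only mix over 5 strength classes stood at 39.9%, so that little of the gap was left. They stood at 47.4% over 5 strength by 3 width classes, 48.1% over CpG ratio and 46.2% over G+C. The size of this gap thus depended on the weighting. The strength by width values of the ETS letters and the CCAAT box have the same thin classes as that of NRF1, down to 18 recurring windows. The TATA box was more frequent, with 6.10% (5.03 to 7.32%) against 4.22% (3.63 to 4.87%), below the 9.64% of all windows. AP-1 letters, in 4.05% and 3.77%, and CTCF letters, in 6.67% and 6.13%, had overlapping intervals, and all windows held them in 5.76% and 5.93%.

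Along the genome the untreated-only share moved largely with the strength of the peaks on each chromosome. It was lowest on chromosome 19, where 383 of 1044 peaks (36.7%, 33.8 to 39.7%) were untreated-only, followed by chromosome 17 with 45.6% and chromosome 16 with 46.0%. It was highest on the X chromosome, with 58.5% (53.4 to 63.5%). Chromosome 19 is the most gene-dense human chromosome, and its SON peaks had the highest median −log10 p of the 23, 12.9. The share that the strength classes of its peaks would give was 40%. On 22 of 23 chromosomes the interval of the observed share held the value from the strength classes, and chromosome 19 was the exception. By 1-Mb bin, 61.4% (56.6 to 66.1%) of untreated peaks in bins without a protein-coding gene were untreated-only and 38.4% (34.8 to 42.2%) in bins with 41 or more, where the strength classes gave 60.2% and 41%. Bins with 1 to 5 genes stood slightly above their value from the strength classes, with 57% (55.8 to 58.1%) against 55.7%, and bins with 21 to 40 below it, with 41.9% (40.2 to 43.6%) against 44.4%.

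**Figure D4:**
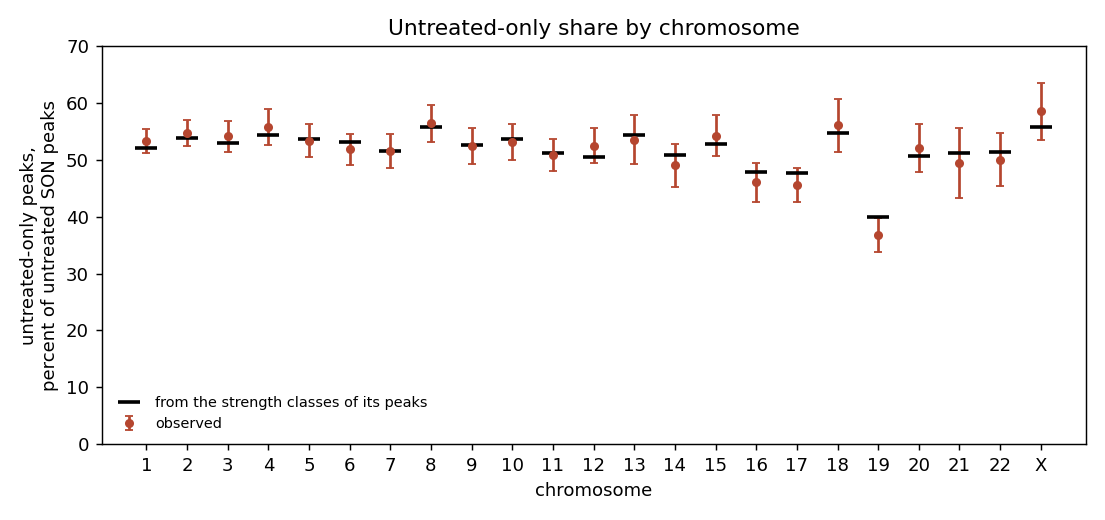
Untreated-only peaks as a percent of untreated SON peaks on each chromosome (points, bars for 95% exact binomial intervals) and the share given by the strength classes of that chromosome's peaks (black dashes). Chromosome 19 lies lowest at 36.7%, with its dash at 40%, and chromosome X highest at 58.5%.

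Bins were ranked by their number of untreated-only peaks, whose share over all untreated peaks was 51.8%. The fullest were chr2:237000001-238000000, with 29 of 43 untreated peaks (67.4%), chr9:129000001-130000000, with 25 of 36 (69.4%), and chr1:151000001-152000000, with 23 of 35 (65.7%). The first of these holds COL6A3, the gene of a collagen VI chain, and the third PSMB4, a proteasome subunit gene. The 3-day list had 12, 10 and 13 peaks and the 6-day list 7, 6 and 5 peaks in the 3 bins, so none was emptied. The longest stretches of consecutive untreated-only peaks, chosen after they were seen, were 15 peaks on chr3:68988787-70850379 and 15 on chr10:70430599-71759671. The first spans 1.86 Mb and includes MITF, a transcription factor gene of the melanocyte lineage that is also expressed in other cells, and the second spans 1.33 Mb and includes NODAL and CDH23. How long a stretch an overall share of 51.8% would give by order alone was not computed. The stretches are therefore named only as a description. Of 968 bins with at least 10 untreated peaks, 2 had no untreated-only peak: chr6:33000001-34000000, with 15 untreated peaks, and chr19:56000001-57000000, with 11. The highest shares were 11 of 11 on chr3:69000001-70000000, 11 of 12 on chr4:156000001-157000000 and 10 of 11 on chr9:88000001-89000000. In these bins the 3-day list had 1, 0 and 1 peaks and the 6-day list 0, 2 and 0.

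Counted by gene, with the gene body and 5 kb around it, 11401 of 19974 protein-coding genes carried an untreated SON peak. At least 1 untreated-only peak was carried by 6107 of them (53.6%), and 3369 (29.6%) carried untreated-only peaks alone. Of those 3369, 2562 carried 1 peak and 807 carried more. The genes with the most untreated-only peaks, named after their counts were seen, were long: RAD51B, a recombination repair gene of 863 kb, had 13 beside 5 recurring peaks, and DLGAP1, of 959 kb, had 12 beside 6. ETS1, which encodes a transcription factor of fibroblasts and lymphocytes, had 10 beside 1 in 129 kb. Among genes with no recurring peak, LDB2 had 7 untreated-only peaks, and FOXO3, a stress-responsive transcription factor gene, MITF and PDGFC, a growth factor gene, had 6 each.

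The 13 gene lists below are of unequal gene length and size, and their shares are set beside the 29.6% of all SON-carrying genes as a description. The shares were not weighted by peak strength, with which the untreated-only share moved. Genes of splicing factors stood low. Of 66 that carried an untreated SON peak, 4 (6.06%, 1.68 to 14.8%) carried untreated-only peaks alone: CLK1 and SRPK2, kinases of SR proteins, with a strongest −log10 p of 16 and 6.52, the U2 snRNP gene SF3B4, with 9.53, and PRPF38A, with 11.6. Beside recurring peaks, SRSF10, an SR-like splicing regulator, carried an untreated-only peak of 19.3 beside a recurring one of 119. U2AF2, which recognises the polypyrimidine tract, carried one of 15.9 beside 540.3, and SNRPD3, a Sm core gene, one of 13.6 beside 21.3. In these 3 genes the strongest SON peak was thus a recurring one.

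Genes of the extracellular matrix made by fibroblasts stood higher. Of 31 that carried SON, 28 (90.3%, 74.2 to 98.0%) held at least 1 untreated-only peak, against 53.6% of all SON-carrying genes. No other untreated peak was held by 13 (41.9%, 24.5 to 60.9%), an interval that includes the 29.6% of all genes. These genes are long, with a median of 75.2 kb against 33.2 kb. They carried a median of 2 untreated SON peaks against 1, which gives more room for at least 1 untreated-only peak. COL6A3 carried 4, the strongest at 23. COL1A2, a chain of type I collagen, carried 2 (16.4), CCN1, a secreted matricellular protein gene, 2 (15.7), and SPARC, a collagen-binding glycoprotein gene, 2 (14.7). MMP2, a gelatinase gene, carried 3, the strongest at 17.8, beside a recurring peak of 15.3. COL1A1, with 7.75, and COL3A1, with 6.99, each carried 1 untreated-only peak and no recurring one.

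Among genes of the senescence-associated secretory phenotype, 6 of 13 (46.2%, 19.2 to 74.9%) carried untreated-only peaks alone. IGFBP7 and IGFBP5, genes of insulin-like growth factor binding proteins, carried 3 and 1, with a strongest −log10 p of 16.4 and 7.78, and IL6, a cytokine gene, carried 1 with 7.34. TIMP2, a metalloproteinase inhibitor gene, held 2 untreated-only peaks (10.3) and 1 recurring peak (21.4). HOX genes stood at 6 of 9 (66.7%, 29.9 to 92.5%), but they are neighbours that share peaks: HOXB3, HOXB5 and HOXB6 each carried 1 untreated-only peak of the same −log10 p, 12.3. HOXA3 carried 4 untreated-only peaks (18.2) and 1 recurring peak (23.6). These lists are small, and their intervals span from near or below to far above the share of all genes.

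AP-1 genes stood at the other end, with 0 of 15 carrying untreated-only peaks alone, a count that allows a share of up to 20.0% at 3 counts of the total and 21.8% by the exact interval. At least 1 such peak was held by 7 of them (46.7%, 21.3 to 73.4%), near the 53.6% of all SON-carrying genes. These included JDP2 with 24.3 beside a recurring peak of 13.2, MAFK with 21.6 beside 26.9, FOS with 12.9 beside 9.88 and ATF7 with 12.4 beside 12.4. Ribosomal protein genes stood at 13 of 74 (17.6%, 9.70 to 28.2%), among them RPL6 (19.8), RPL26 (19.6) and RPS28 (17), while RPS16 held 2 untreated-only peaks (21.8) and 1 recurring peak (20.7). DNA repair genes stood at 7 of 38 (18.4%, 7.74 to 34.3%), with FANCI (13.5) and NBN (11.7) as the strongest. TP53BP1, a double-strand break response gene, held 2 untreated-only peaks (23) beside 3 recurring ones (16.4), and BRCA1 2 (10.9) beside 2 (20.6).

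**Figure D5:**
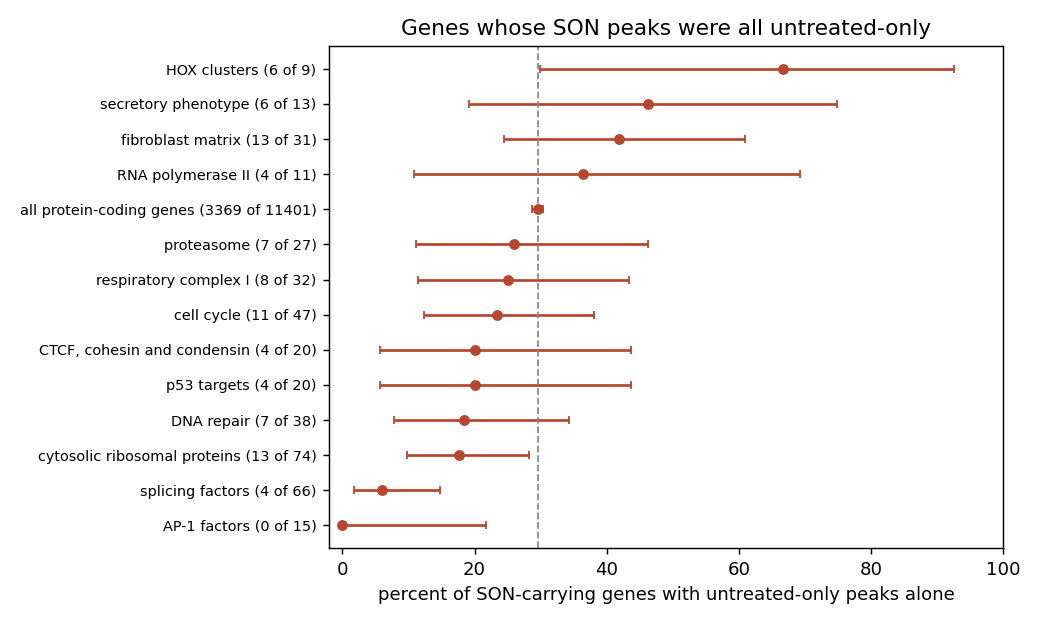
Percent of SON-carrying genes of each list whose untreated SON peaks were all untreated-only (points, bars for 95% exact binomial intervals), with the counts in brackets and a dashed line at the 29.6% of all protein-coding genes. Splicing factors lie at 6.06% and the fibroblast matrix at 41.9%, and most intervals cross the line.

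The remaining lists lay around or below the share of all genes, with intervals that include it. Cell cycle genes stood at 11 of 47 (23.4%, 12.3 to 38.0%): RRM1, a ribonucleotide reductase gene (17.6), LMNB1, the lamin B1 gene (14.5), KIF11, a spindle kinesin gene (13), and with weaker peaks BIRC5, CCND1, CCNE2, CDC25B, E2F1, FOXM1, RRM2 and TYMS. MCM5, a subunit gene of the replicative helicase, held 2 untreated-only peaks (19.5) beside a recurring one of 10.3. Proteasome genes stood at 7 of 27 (25.9%, 11.1 to 46.3%), led by PSMB6 (16.9), PSMB4 (13.7) and PSMD6 (13.2), and complex I genes at 8 of 32 (25%, 11.5 to 43.4%), led by NDUFA13 (13.1) and NDUFA9 (12.5). Genes of CTCF, cohesin and condensin stood at 4 of 20 (20.0%, 5.73 to 43.7%): the condensin genes SMC2 (11.7) and NCAPH (6.68), the cohesin gene STAG2 (9.84) and the cohesin loader gene NIPBL (8.18). RAD21, another cohesin gene, held an untreated-only peak of 6.92 beside a recurring one of 75.5. Targets of p53 stood at 4 of 20, BBC3, PMAIP1, RPS27L and TNFRSF10B, with RPS27L the strongest at 8.71. CCNG1 (17.2), GADD45A (16.4) and BAX (15) each held 1 untreated-only peak beside a recurring one of 17.9, 15.6 and 18.3. RNA polymerase II genes stood at 4 of 11 (36.4%, 10.9 to 69.2%), POLR2B with 4 peaks (17.5), POLR2C (10.1), POLR2L (7.77) and POLR2D (5.85).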

How the data were processed

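ChIPmentation peak lists of 4 of 6 samples were used. Not analysed here were the HMGB2 input and a further HMGB2 sample with DSG in its title. Per the submitters' processing notes, bcl2fastq 2.17, Bowtie2, MACS2, deepTools and hg38 were used, with no roles given. Each SON list has the 20 columns that the IDR tool writes. Of the 2 replicates' −log10 p values, the lower is the one the authors give for a peak, and the deposited −log10 global IDR has its scaled form in the authors' score column. The HMGB2 list is in MACS2 layout, with a deposited fold enrichment (a ratio), −log10 p, −log10 q and score, and its peak names give a q cutoff of 0.03. Whether a control was used is not given in the sources used here. These values describe peaks within their own list only.

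Peaks on chromosomes 1 to 22 and X were compared by overlap of at least 1 bp, in Python 3.11.15 with pandas 2.3.3 and scipy 1.17.1. Coordinates are 1-based. Starts, gene spans and promoter windows came from RefSeq tables of GRCh38.p14, which give no exons, and 15812 of 19974 protein-coding genes matched a window. Strength classes are 5 equal classes of the untreated list by −log10 p. In weighted comparisons, recurring peaks were given the class mix of the untreated-only peaks. Named regions were the 10 strongest members, the strongest with and without HMGB2 away from gene ends, those nearest the rule's limits and the fullest bins, and named genes were up to 4 per list by strongest member, not all of which are reported here. Other names were chosen after their values were seen. The members and lists were chosen with earlier results of these data known. Overlap, motif search and weighting were tested on simulated data. Alternatives covered the overlap rule, thresholds, windows, peak intervals, replicate values and weighting.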

Additional observations from a re-analysis of the deposited data

Results flagged for a closer look

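Peaks outside chromosomes 1 to 22 and X were left out of the comparisons. Of 146 such lines of the untreated SON list, on unplaced contigs and the mitochondrial genome, 21 (14.4%, 9.13 to 21.1%) overlapped no later line, against 51.8% on the chromosomes compared. These 21 had a median −log10 p of 9.28 and the others one of 21.8. All 8 mitochondrial lines met a later line. The HMGB2 input was not used here.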

How the results depend on the processing

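Of 35 alternatives, 11 stayed within the interval set around the value reported, 24 moved and 0 reversed a direction. For shares this was the counting interval. For gaps between recurring and untreated-only peaks it was centred on the gap and as wide as the interval of the untreated-only share. It thus left out the counting error of the recurring share. A reversal could arise only where untreated-only and recurring peaks were compared. It could not arise for the untreated-only share of peaks or of genes. The 24 include the medians of the 2 replicates, which have no such interval. The untreated-only share of 51.8% depended on the thresholds: it was 35.3% for untreated peaks of IDR 0.05 or less, 79.4% with that limit in the later lists, 27.5% in the stronger 50% of untreated peaks, 23% with the 5481 strongest peaks of each list, 61.3% among peaks whose replicate values differ and 50.2% when a gap of up to 1 kb counted as shared. For HMGB2 overlap, 11.9% of untreated-only peaks against 26.8% of recurring ones was found with the IDR limit, 4.69% against 15% with the stronger 50% of HMGB2 peaks and 10.9% against 25.7% within 1 kb. For starts, the values were 20.5% with the IDR limit, 13.5% when the peak covers the start, 22.1% within 5 kb and 21.1% at either end of all protein-coding genes, against 42.2%, 34.1%, 41.8% and 42.6% of recurring peaks. The gap between recurring and untreated-only peaks was 5.77 percentage points for HMGB2 and 8.66 for starts with recurring peaks weighted over 5 strength classes, and 2.67 and 1.72 over 5 strength by 3 width classes. For the NRF1 letters it went from 4.34 to 2.33 in the latter. Over 5 strength classes alone, a weighting outside the 35 alternatives, that gap did not shrink. Recurring windows then held the letters in 5.37%, against 5.20% unweighted. The NRF1 share was 5.59% with a central base left free. Genes with untreated-only peaks alone made up 20.9% with the IDR limit, 31.1% in the gene body and 30.9% within 1 kb of a gene start or end. The median −log10 p was 8.28 in replicate 1 and 8.58 in replicate 2. The weighting, the replicate values that differ, either gene end and the free NRF1 base were chosen after seeing the data. The weighting is a description, and the cause of these changes was not tested. No paired analysis was possible because each group is 1 list, and for the same reason no replicate could be left out. Depth is unknown, so the detection limit of each list is unknown too.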
